A study of Mus musculus with 6 samples.

Results

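The genes described here encode histone methyltransferases, demethylases, deacetylases and acetyltransferases, the core of Polycomb repressive complex PRC2, and the ATP-dependent remodellers with their subunits. Members were the protein-coding genes of the deposited comparison whose symbols begin with Kdm, Kmt, Setd, Hdac, Kat, Smarca to Smarce, Arid1 to Arid5 or Chd1 to Chd9, together with Ezh1, Ezh2, Suz12 and Eed. The name rule, which used no measured value, found 86 genes among the 39527 genes of the table. Of these, 82 had an adjusted p-value and could be called. The other 4 were barely detected, with means of 0.111 normalized counts for Kdm5d, 7.59 for Smarca1, 8.45 for Arid3c and 9.57 for Chd5 in the authors' deposited table.

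RNA was sequenced from group 2 innate lymphoid cells (ILC2s) of mouse lung, tissue-resident lymphocytes that make type 2 cytokines. All 6 samples came from mice given the alarmin IL-33 for 4 days. The WT group was R5/+ and the KO group R5/+LKB1f/f, which carries floxed alleles of LKB1, the kinase encoded by Stk11. Each group had 3 samples, and 3 to 4 mice were pooled for each, which averages over animals. The R5 allele is shared by both groups, and the sources used here do not give the cells in which it acts or the ages of the mice.

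Histone-modifying enzymes work as writers and erasers: one class places methyl or acetyl groups on histone tails and another removes them, and the balance sets how readily the underlying DNA is read. Remodellers use ATP to slide, eject or exchange nucleosomes. In lymphocytes these enzymes hold lineage and effector genes open or closed while cells divide and differentiate.

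The values were the authors' comparison of the genotypes, with 1 log2 fold change, 1 standard error (SE) and 1 mean normalized count per gene, and no value of a single sample was used. No source states which genotype is the numerator, so genes are given as positive or negative as the sign stands in the table. Stk11 itself (chromosome 10, 80115803 to 80130682, mm10) was negative in the authors' deposited table, at -1.34 ± 0.30 (SE) with an adjusted p of 0.000103 and a mean of 652.3 normalized counts. Negative members therefore share the sign of the floxed gene. A gene was called at an adjusted p below 0.05, as the authors adjusted it. The sources used here do not give the libraries behind the authors' fit, which may hold more than these 6 samples, so a p-value is not known to rest on 3 samples a group. Whether the pools were separate cohorts is not stated, so the spread between samples may be partly technical. In bulk RNA, fewer cells of a type and less RNA per cell cannot be told apart.

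The sequences upstream of 3 members are shown because these genes carry the largest negative change (Setd8), the largest positive change (Kdm5b) and the only call within PRC2 (Ezh2). They come from RefSeq and run 5′ to 3′ on the gene's strand. They lie within the 250 bases before a RefSeq start site and leave out any base in a GENCODE M21 exon. Where a gene has several windows, the one with most motif matches is shown, a choice made after the matches were seen. Capitals mark CCAAT boxes on either strand (CCAAT or ATTGG).
Setd8 promoter, GRCm38.p6 chr5:124439680-124439929, plus strand: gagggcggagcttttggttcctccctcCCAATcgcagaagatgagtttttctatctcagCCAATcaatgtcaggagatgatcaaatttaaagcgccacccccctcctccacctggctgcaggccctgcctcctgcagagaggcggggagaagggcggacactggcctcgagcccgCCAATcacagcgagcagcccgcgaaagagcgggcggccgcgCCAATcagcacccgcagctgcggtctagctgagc
Ezh2 promoter, GRCm38.p6 chr6:47595059-47595183, minus strand: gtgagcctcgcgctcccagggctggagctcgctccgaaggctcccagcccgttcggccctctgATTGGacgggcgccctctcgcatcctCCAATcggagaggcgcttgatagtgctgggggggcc
Kdm5b promoter, GRCm38.p6 chr1:134559928-134560170, plus strand: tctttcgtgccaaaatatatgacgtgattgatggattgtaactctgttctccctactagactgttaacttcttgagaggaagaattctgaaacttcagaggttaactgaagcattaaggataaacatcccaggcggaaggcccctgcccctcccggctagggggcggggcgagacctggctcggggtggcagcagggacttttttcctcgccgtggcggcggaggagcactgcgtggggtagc
The stretch shown for Setd8 (250 bases) held 4 CCAAT boxes, that for Ezh2 (125 bases) held 2 and that for Kdm5b (243 bases) none. A further CCAAT box of Ezh2 begins 11 bases before the start, outside the shorter stretch shown.

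Called members were found in both directions. Of the 82 tested members, 28 were called, or 34.1%, beside 24.5% of all 14961 tested genes. Positive calls numbered 15, or 18.3% of members beside 11.0% of all tested genes, and negative calls 13, or 15.9% beside 13.5%, which is close to the background. Members have higher counts than most genes. Among genes with a mean of at least 100 normalized counts, 29 of 77 members were called (37.7%) beside 35.5% of 9714 genes, with 20.8% positive beside 15.5% and 16.9% negative beside 19.97%. The share of called members was thus near that of genes in this range of counts. Of the called members, 16 differed by at least 1.5-fold, 8 in each direction. They were 19.5% of tested members, beside 16.3% of all tested genes. Only Setd8 and Kdm5b, 2 of the 82 tested members, were called and differed by at least 2-fold, beside 1142 of all 14961 tested genes. The median log2 fold change of the members was 0.13, with 49 above 0 and 33 below, while the median of all tested genes was -0.01. The members' median SE of 0.165 was smaller than the 0.233 of all tested genes, so that a change of a given size passed the threshold more easily among them.

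Within PRC2, the complex that methylates H3K27 to silence genes, only the catalytic subunit Ezh2 was called. That is 1 negative call among 4 genes (25%, beside 13.5% of all tested genes). Ezh2 (chromosome 6, 47530139 to 47595341) stood at -0.87 ± 0.15 with an adjusted p of 1.27e-07 and a mean of 1198.4 normalized counts in the authors' deposited table. Suz12, the scaffold subunit, stood at -0.48 ± 0.21 (adjusted p 0.0767, mean 347.8) in the authors' deposited table. Eed, the subunit that binds the methyl mark, stood at -0.33 ± 0.14 (adjusted p 0.0839, mean 2086.2) in the authors' deposited table. All 3 subunits were below 0, but Suz12 and Eed did not pass the test. Ezh1, the alternative catalytic subunit of resting cells, was the exception in sign, at 0.30 ± 0.12 (adjusted p 0.0563, mean 1824.6) in the authors' deposited table. The 95% intervals of Ezh2, from -1.16 to -0.58, and of Ezh1, from 0.06 to 0.53, did not overlap, although the difference between the genes was not tested. Per kb of exon, the mean level was 179 normalized counts for Ezh2, 245 for Ezh1, 545 for Eed and 70.3 for Suz12.

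Setd8 carried the largest negative change of any member. Setd8 (current symbol Kmt5a, chromosome 5, 124439930 to 124462308), the enzyme that places a single methyl group on H4K20, stood at -1.20 ± 0.18 in the authors' deposited table, with an adjusted p of 6.4e-09 and a mean of 620.8 normalized counts. This is a 2.30-fold difference, with a 95% interval of -1.56 to -0.84 on the log2 scale. Setd6, which methylates the NF-kB subunit RelA, was the other negative call of the family, at -0.62 ± 0.14 (adjusted p 0.000274, mean 603.4) in the authors' deposited table. These 2 were 22.2% of the 9 tested Setd genes, beside 13.5% of all tested genes called negative. The other 7 Setd genes were not called and ranged from -0.15 to 0.31. The actin methyltransferase Setd3 had the highest mean of the family, 2386.3 normalized counts, and stood at -0.15 ± 0.12 (adjusted p 0.426) in the authors' deposited table. Setd2, which writes trimethylated H3K36, Setd5, Setd7 and the low-count genes Setd1a, Setd1b and Setd4 complete the family.

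The Kmt2 genes included 1 call among 5, a positive one (20% beside 11.0% of all tested genes). The products of Kmt2a to Kmt2d methylate H3K4 in COMPASS complexes. Kmt2c, a monomethyltransferase of enhancers, was positive at 0.52 ± 0.17 (adjusted p 0.0128, mean 2441.3) in the authors' deposited table. Its partner at enhancers, Kmt2d, stood at 0.23 ± 0.21 (adjusted p 0.482) in the authors' deposited table. Their intervals overlap, so the values do not set these paralogues apart. Kmt2e had the highest mean count of all members, 4510.6 normalized counts before any allowance for length, and stood at 0.03 ± 0.13 (adjusted p 0.898) in the authors' deposited table. Kmt2a and Kmt2b were at 0.01 and -0.16 and were not called.

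Among the histone demethylases (Kdm), positive calls were more numerous than negative ones. Of 17 tested genes, 5 were positive (29.4%, beside 11.0% of all tested genes) and 2 negative (11.8% beside 13.5%). The other 10 were not called, and the median was 0.22. Kdm5b (chromosome 1, 134560171 to 134635285), an eraser of H3K4 trimethylation, had the largest positive change of any called member, at 1.15 ± 0.23 in the authors' deposited table, with an adjusted p of 1e-05 and a mean of 1244.5 normalized counts. This is a 2.22-fold difference. Its paralogue Kdm5a was positive at 0.34 ± 0.12 (adjusted p 0.0278, mean 3198.5) in the authors' deposited table. Kdm5c, on the X chromosome, stood at 0.28 ± 0.12 (adjusted p 0.0828) in the authors' deposited table. All 3 tested Kdm5 genes were thus above 0, and 2 were called (66.7%, beside 11.0% of all tested genes called positive).

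The Kdm4 enzymes erase methyl groups from H3K9 and H3K36. Kdm4c was positive at 0.65 ± 0.13 (adjusted p 6.48e-06, mean 1014.3) in the authors' deposited table. Kdm4b was positive at 0.54 ± 0.18 (adjusted p 0.0147, mean 1040.6) in the authors' deposited table. Kdm4a, at -0.22, and Kdm4d, with a mean of 39.7 normalized counts, were not called. Kdm1b, a flavin-dependent H3K4 demethylase, was positive at 0.66 ± 0.15 (adjusted p 0.000143, mean 670.5) in the authors' deposited table. Its exons overlap those of Dek on the opposite strand over 9.19% of their length, and Dek was negative at -0.65 (adjusted p 7.9e-05) in the authors' deposited table. The sources used here do not say how strand was handled, so reads of these genes may be split between them.

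Kdm2b, a demethylase that brings a variant PRC1 complex to CpG islands, had the highest mean count of the Kdm genes and went the other way. Kdm2b stood at -0.82 ± 0.19 (adjusted p 0.000281, mean 3546.7) in the authors' deposited table. Its exons overlap those of Rnf34 on the opposite strand over 5.77% of their length. Rnf34 stood at -0.14 (adjusted p 0.676) and was not called. The Kdm2b paralogue Kdm2a stood at 0.19 ± 0.12 (adjusted p 0.232, mean 1785.3) in the authors' deposited table. The 95% intervals, from -1.20 to -0.44 for Kdm2b and from -0.03 to 0.42 for Kdm2a, did not overlap, and the difference was not tested. The JmjC-domain gene Kdm8 was the other negative call, at -0.76 ± 0.29 (adjusted p 0.0376, mean 131.2) in the authors' deposited table. The H3K9 demethylases Kdm3a and Kdm3b, the H3K27 demethylases Kdm6a and Kdm6b, and Kdm1a and Kdm7a were not called and lay between -0.10 and 0.25.

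**Figure D1:**
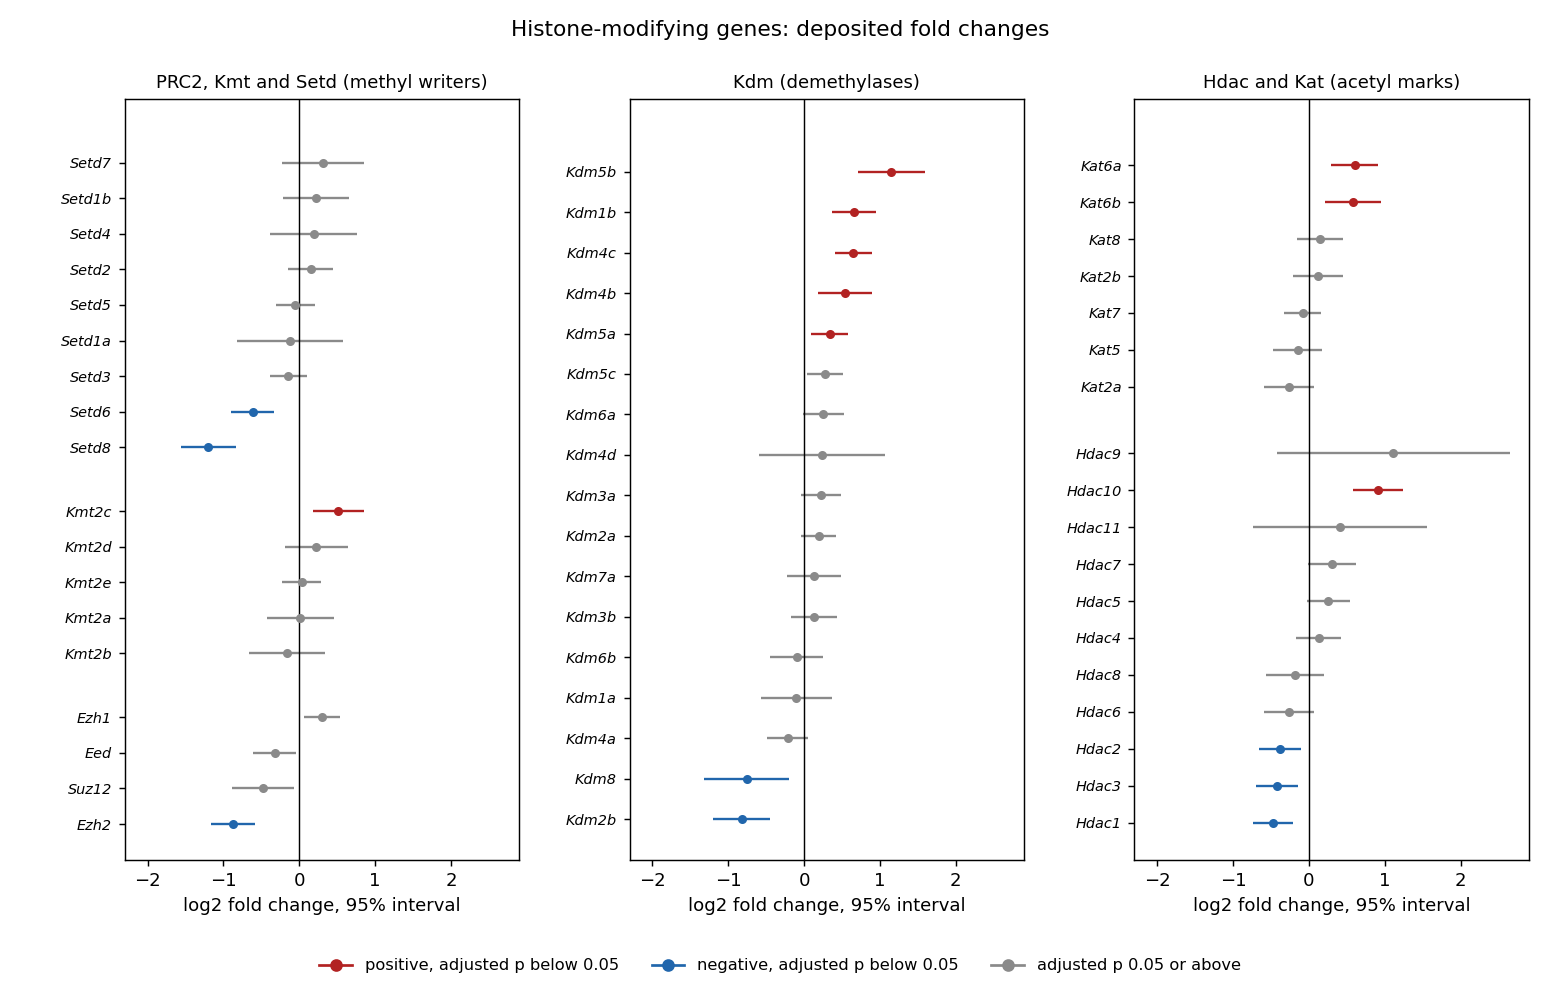
Deposited log2 fold change (horizontal axis) of each tested histone-modifying gene, in panels for the methyl writers, the demethylases and the acetyl-mark enzymes; points are the fold changes and bars the 95% intervals from the deposited SE. Setd8 at -1.20 and Kdm5b at 1.15 are the extremes among called genes, and Hdac1, Hdac2 and Hdac3 lie together below 0.

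The deacetylases (Hdac) fall into classes with different partners. Class I holds the nuclear enzymes of the NuRD, SIN3, CoREST and related corepressors. Of its 4 genes, 3 were called negative (75%, beside 13.5% of all tested genes). Hdac1, with the highest mean count of the family, stood at -0.48 ± 0.13 (adjusted p 0.00305, mean 4462.7) in the authors' deposited table. Hdac3, a catalytic subunit of corepressor complexes, stood at -0.42 ± 0.14 (adjusted p 0.0142, mean 1590.2) in the authors' deposited table. Hdac2, the paralogue of Hdac1, stood at -0.38 ± 0.14 (adjusted p 0.0345, mean 1756.9) in the authors' deposited table. These 3 changes lie within 1 SE of each other. Hdac8, also class I, was not called, at -0.18 ± 0.20. Per kb of exon, Hdac1 had the highest level of these genes, 1295 normalized counts, beside 393 for Hdac2, 392 for Hdac3 and 51.1 for Hdac8.

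None of the 4 class IIa genes, whose products shuttle between nucleus and cytoplasm as cofactors of MEF2, was called. Hdac4, Hdac5 and Hdac7 were at 0.13, 0.26 and 0.31, and Hdac9, with a mean of 13.8 normalized counts, was at 1.11 ± 0.78 in the authors' deposited table. The positive Hdac call was Hdac10 of class IIb (chromosome 15, 89123307 to 89128700), a polyamine deacetylase, at 0.91 ± 0.17 (adjusted p 1.8e-06, mean 890.7) in the authors' deposited table. Hdac6, the tubulin deacetylase of the same class, was at -0.26 and Hdac11 of class IV at 0.41, and neither was called. The difference between classes was not tested.

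Among the acetyltransferases (Kat), the calls were the closely related MYST genes Kat6a and Kat6b, both positive. They were 2 of 7 tested genes (28.6%, beside 11.0% of all tested genes), and none was negative (beside 13.5%). Kat6a stood at 0.60 ± 0.16 (adjusted p 0.00122, mean 1457.8) in the authors' deposited table. Kat6b stood at 0.58 ± 0.19 (adjusted p 0.0124, mean 272.9) in the authors' deposited table. The pair had nearly the same change, while the level per kb of exon was 159 normalized counts for Kat6a and 16.2 for Kat6b. Kat7, with the highest mean count of the family and the partner of the BRPF and JADE scaffolds, was at -0.08 ± 0.12 (adjusted p 0.685, mean 2206.9) in the authors' deposited table. Kat5 and Kat8, the remaining MYST genes, and Kat2a and Kat2b, the GCN5 and PCAF genes of SAGA-type complexes, lay between -0.26 and 0.15 and were not called.

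The Smarc genes were the family with most negative calls. Of 12 tested, 5 were negative (41.7%, beside 13.5% of all tested genes) and 1 positive (8.33% beside 11.0%). The other 6 were not called, and the median was -0.24. Smarca5, the ISWI ATPase that spaces nucleosomes, had the largest change, at -0.92 ± 0.19 (adjusted p 2.73e-05, mean 831.6) in the authors' deposited table. The other negative calls were subunits of the BAF (SWI/SNF) complex. Smarcd2 stood at -0.90 ± 0.27 (adjusted p 0.00696, mean 1134.9) in the authors' deposited table. Smarcc1, a core scaffold subunit, stood at -0.72 ± 0.19 (adjusted p 0.00145, mean 1109.8) in the authors' deposited table. Both changes exceed 1.5-fold. Smarce1 was smaller, at -0.42 ± 0.13 (adjusted p 0.00817, mean 2218.6) in the authors' deposited table. The core subunit Smarcb1 stood at -0.41 ± 0.15 (adjusted p 0.0267, mean 1645.6) in the authors' deposited table.

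Of the BAF ATPase genes only Smarca2 was called, opposite in sign to these subunits, while the 95% interval of Smarca4 overlapped theirs. Smarca2 (BRM), with the highest mean count of the Smarc genes, was positive at 0.73 ± 0.15 (adjusted p 2.68e-05, mean 3192.1) in the authors' deposited table. Its alternative in the complex, Smarca4 (BRG1), stood at -0.15 ± 0.16 (adjusted p 0.53, mean 2833.6) in the authors' deposited table. The 95% intervals, 0.43 to 1.02 for Smarca2 and -0.46 to 0.15 for Smarca4, did not overlap. Per kb of exon, Smarca4 had the higher level, 438 normalized counts beside 224 for Smarca2. A like contrast held for the scaffold pair: Smarcc1 ran from -1.10 to -0.35 and Smarcc2, at 0.13 ± 0.11, from -0.09 to 0.34 in the authors' deposited table. Neither difference was tested. Smarcd1 at -0.29 and Smarcd3 at 0.74 were not called. Smarcd3 had a mean of only 10.5 normalized counts and shares 48.2% of its exon length with Chpf2, so its value is uncertain. Smarcal1, an annealing helicase at replication forks, and Smarcad1 were not called either.

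The Chd genes, chromodomain helicases, were mostly above 0. Of 8 tested, 3 were positive (37.5%, beside 11.0% of all tested genes) and none negative (beside 13.5%), with a median of 0.36. Chd9 stood at 0.65 ± 0.14 (adjusted p 6.92e-05, mean 1013.9) in the authors' deposited table. Chd8 stood at 0.59 ± 0.13 (adjusted p 5.03e-05, mean 750.7) in the authors' deposited table. Of its exon length, 5.77% is shared with the antisense gene Gm26590, which had a mean of 2.44 normalized counts. Chd8 and Chd9 belong to subfamily III, whose other members Chd6 (adjusted p 0.0890) and Chd7 (adjusted p 0.225) were at 0.46 and 0.33 in the authors' deposited table. Chd7 had the highest mean count of the Chd genes, 3551.8, and its SE was 0.20. Chd2, of subfamily I, stood at 0.38 ± 0.14 (adjusted p 0.0318, mean 2075.2) in the authors' deposited table, and 18.4% of its exon length is shared with 1810026B05Rik. The NuRD ATPases Chd3 and Chd4 were at 0.26 and 0.05 and Chd1 at -0.11, without a call.

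The Arid genes encode AT-rich interaction domain proteins. Of 9 tested, 2 were positive (22.2%, beside 11.0% of all tested genes) and none negative (beside 13.5%). Arid5a, with the highest mean count of the family and known as an RNA-binding protein that stabilises inflammatory transcripts, stood at 0.50 ± 0.14 (adjusted p 0.00354, mean 2846.9) in the authors' deposited table. Arid4a, a subunit of SIN3 corepressors, stood at 0.35 ± 0.13 (adjusted p 0.0332, mean 1639.4) in the authors' deposited table. Its paralogue Arid4b was at 0.30 without a call. The BAF and PBAF subunits Arid1a, Arid1b and Arid2 lay between 0.03 and 0.19, and Arid3a, Arid3b and Arid5b between -0.17 and 0.33, none of them called. Over the 12 BAF subunits with Smarc or Arid names, 4 were negative (33.3%, beside 13.5% of all tested genes) and 1 positive (8.33% beside 11.0%). The other 7 were not called.

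**Figure D2:**
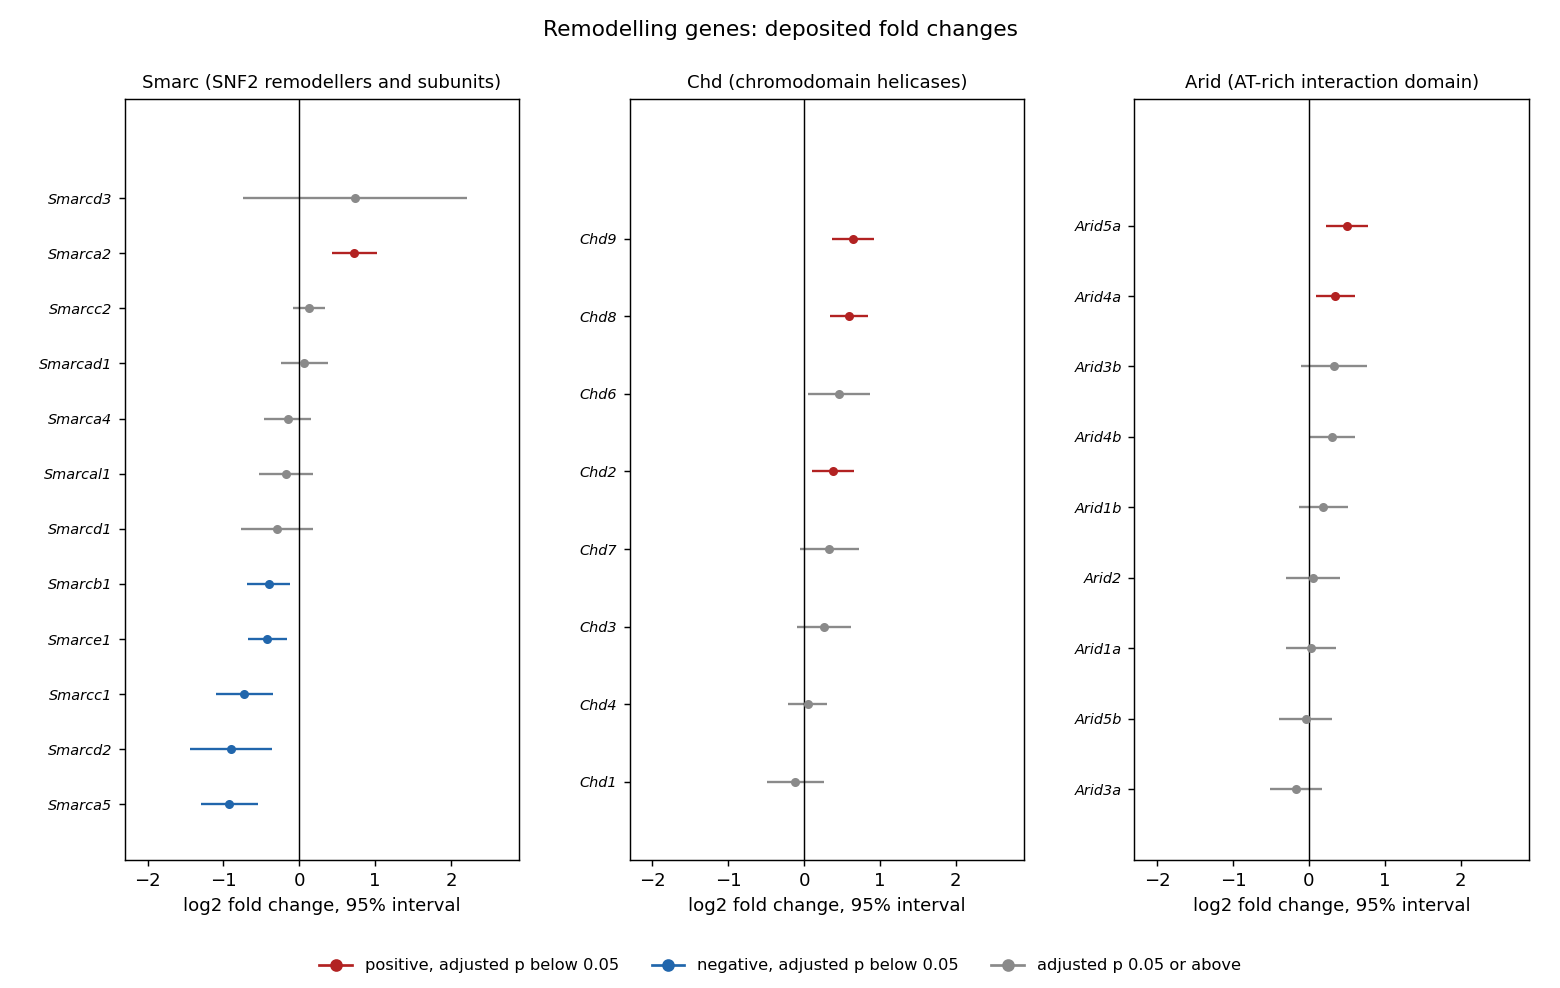
Deposited log2 fold change (horizontal axis) of each tested Smarc, Chd and Arid gene, with 95% intervals from the deposited SE as bars. Of the Smarc genes 5 are negative and Smarca2 alone is positive among calls, whereas the called Chd and Arid genes all lie above 0.

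Gene length differed between the called members of opposite sign. The median exonic length was 14158 bases for the 15 positive members and 5307 bases for the 13 negative ones, beside 7997.5 for those not called and 4586 for all tested protein-coding genes. Spearman's rho between fold change and exonic length was 0.443 over the 82 members, given as a description since the genes share libraries. Over 13036 protein-coding genes it was 0.263. Protein-coding genes were put into 4 nearly equal bins of length, and in the longest bin (7059 bases or more) 16.4% were positive and 6.93% negative. Members in that bin numbered 44, of which 10 were positive (22.7%) and 4 negative (9.09%). In the shortest bin 2 of 3 members were negative and 0 positive, beside 23.6% and 6.01% of protein-coding genes. In the next bin 4 of 11 were negative and 1, Hdac10, positive, beside 16.1% and 10.03%. In the bin of 4588 to 7057 bases 3 of 24 were negative (12.5%) and 4 positive (16.7%), beside 12.005% and 12.8%.

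**Figure D3:**
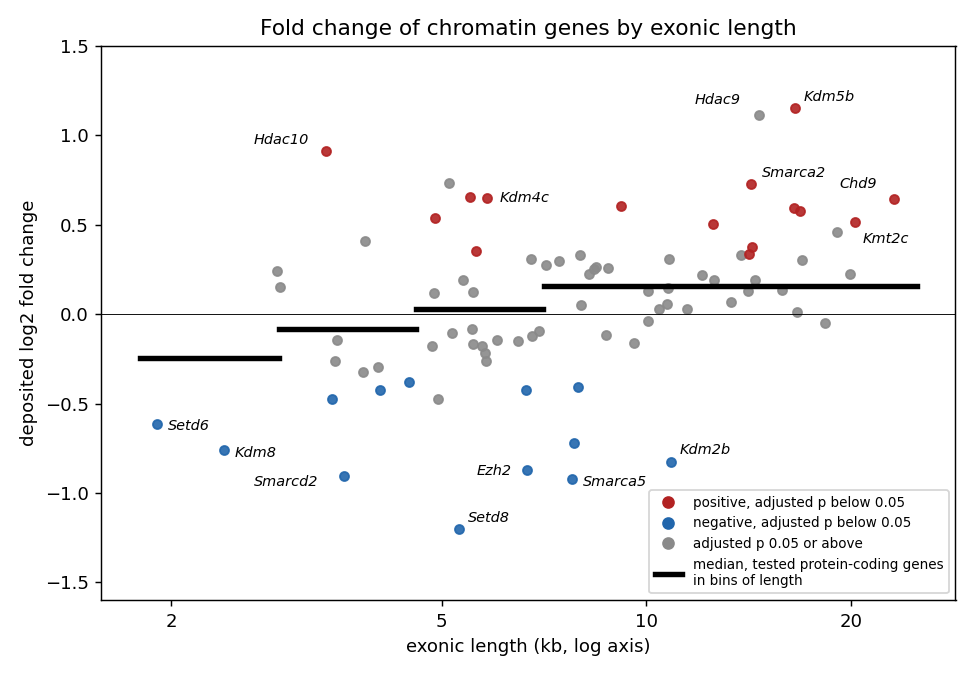
Deposited log2 fold change (vertical axis) of the 82 tested members against exonic length in kb (log axis); black bars are the medians of all tested protein-coding genes in 4 bins of length, the first and last not drawn to their full width. The medians run from -0.24 in the shortest bin to 0.15 in the longest, and positive members lie mostly to the right.

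The trends of fold change on exonic length and GC content were therefore fitted over the protein-coding genes and taken off, with the deposited SE kept. Of the 28 called members, 10 positive and 10 negative ones stayed called and none was added. Each is 12.2% of the members, near the 11.2% positive and 11.4% negative of all 13036 genes in this fit. Setd8 was then at -1.22, Kdm2b at -0.996, Smarca5 at -0.98 and Ezh2 at -0.88. Kdm5b was at 0.94, Hdac10 at 0.95, Kdm1b at 0.70, Kdm4c at 0.67 and Smarca2 at 0.53. These 9 genes thus kept their sign and call. Among positive members, calls were lost for Kdm5a (0.16, adjusted p 0.377), Chd2 (0.20, 0.315), Kmt2c (0.27, 0.265), Arid5a (0.23, 0.259) and Kat6b (0.36, 0.160). The values of Kdm5a, Chd2, Kmt2c and Arid5a were much smaller than those deposited. Among negative members, calls were lost for Hdac2 (-0.29, adjusted p 0.124), Kdm8 (-0.61, 0.115) and Hdac3 (-0.34, 0.0566). These 3 values changed less and ended above the threshold. With the length trend alone removed, an alternative added after seeing the data, Chd9 lost its call too (0.31, adjusted p 0.0887), while Hdac3 kept it (-0.36, adjusted p 0.0434). The members' median moved from 0.13 to -0.06, so the balance of signs across the set depends on this step. The part of length in the single results was not tested.

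**Figure D4:**
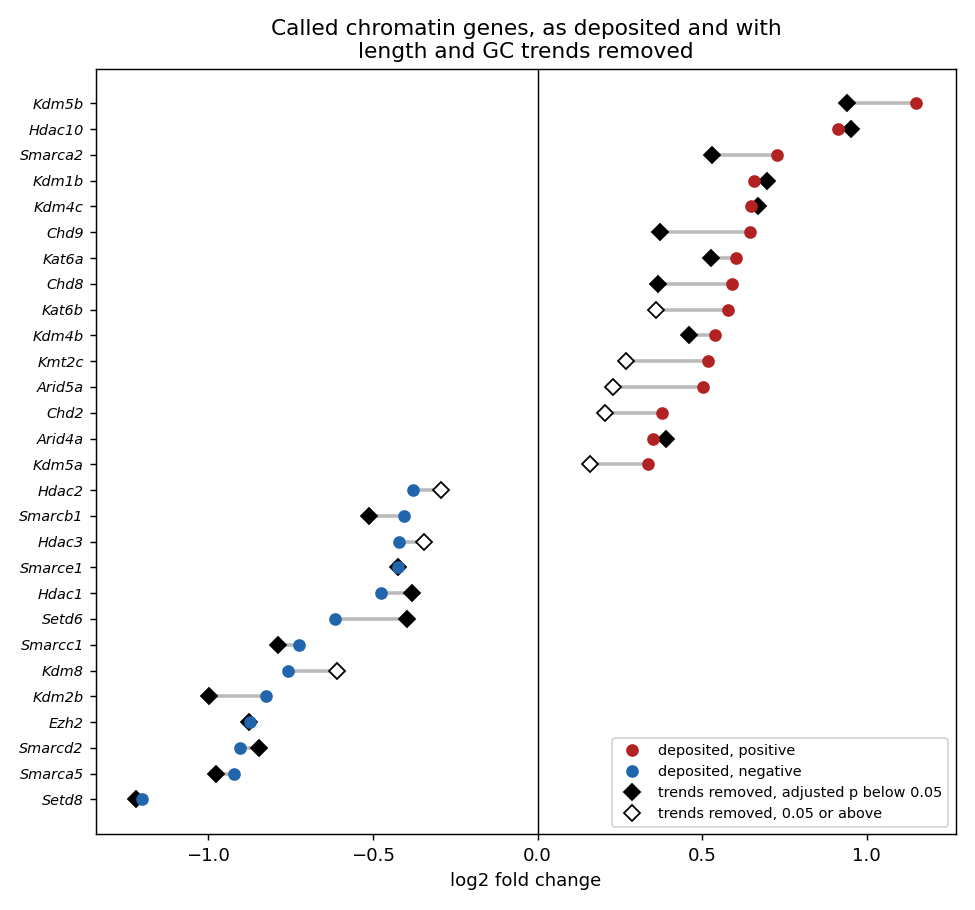
Log2 fold change (horizontal axis) of the 28 called members as deposited (circles) and after the length and GC trends were removed (diamonds, filled where the adjusted p stayed below 0.05). Setd8 and Ezh2 barely move, while Kmt2c, Arid5a, Chd2, Kdm5a and Kat6b lose their call.

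Partner genes outside the name rule were read from 11 lists, with 186 tested genes, of which 16 were positive (8.60%) and 37 negative (19.9%), beside 11.0% and 13.5% of all tested genes. Apart from the histone chaperones, described last, the median log2 fold changes of the lists lay between -0.13 and 0.17. Among 28 PRC1 and PRC2 accessory genes, 2 were positive (7.14%) and 4 negative (14.3%). Phf19, which brings PRC2 to chromatin, was negative at -1.19 ± 0.25 (adjusted p 5.43e-05) in the authors' deposited table. Its relative Phf1 was positive at 1.02 ± 0.26 (adjusted p 0.00107) in the authors' deposited table. Epop (E130012A19Rik in the table), a PRC2-associated protein, was negative at -1.98 ± 0.31 (adjusted p 6.78e-09, mean 81.1) in the authors' deposited table. The accessory factors of PRC2 thus included calls of both signs.

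Of 16 BAF and PBAF subunits with other names none was positive and 2 were negative (12.5%, near the 13.5% of all tested genes): Actl6a at -0.57 ± 0.17 (adjusted p 0.00423) and Pbrm1 at -0.34 ± 0.13 (adjusted p 0.0301) in the authors' deposited table. Corepressor subunits gave 1 negative call among 20 (5%, beside 13.5%), the NuRD gene Mbd3 at -0.58 ± 0.15 (adjusted p 0.00165) in the authors' deposited table. COMPASS partners gave 1 positive (6.25% beside 11.0%) and 4 negative calls (25% beside 13.5%) among 16. Paxip1 was at -0.85 ± 0.20 (adjusted p 0.000308) and the core subunit Dpy30 at -0.58 ± 0.16 (adjusted p 0.00279) in the authors' deposited table. The chromatin tether Psip1 was at -0.75 ± 0.24 (adjusted p 0.0115) in the authors' deposited table.

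SET and PRDM methyltransferases outside the rule gave 3 positive (21.4%) and 4 negative calls (28.6%) among 14, beside 11.0% and 13.5% of all tested genes. The H3K36 methyltransferase Nsd2 (Whsc1 in the table) was at -0.72 ± 0.15 (adjusted p 5.58e-05) in the authors' deposited table. Prdm2 was at 0.83 ± 0.19 (adjusted p 0.000224) and the H3K9 methyltransferase Ehmt1 at 0.71 ± 0.17 (adjusted p 0.000365) in the authors' deposited table. Other acetyltransferase genes gave 4 calls each way among 28 (14.3% each), near the shares of all tested genes. Hat1, which acetylates new histone H4, was at -0.75 ± 0.19 (adjusted p 0.00112) in the authors' deposited table. The scaffold Jade2 was at 0.72 ± 0.21 (adjusted p 0.00368) and Msl2 at 0.50 ± 0.15 (adjusted p 0.00611) in the authors' deposited table. Arginine methyltransferases gave 1 call each way among 8 (12.5% each). These were Prmt2 at 0.72 ± 0.14 (adjusted p 3.88e-06) and Prmt1, the main enzyme of the class, at -0.94 ± 0.20 (adjusted p 4.37e-05) in the authors' deposited table. None of the 7 sirtuins was called.

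Remodelling partners of the INO80, SRCAP and ISWI type gave 3 positive (16.7%) and 4 negative calls (22.2%) among 18, beside 11.0% and 13.5% of all tested genes. Hells, a remodeller needed for DNA methylation, was at -1.02 ± 0.19 (adjusted p 1.84e-06) in the authors' deposited table. The ISWI partners Baz2a at 0.69 ± 0.15 (adjusted p 6.22e-05) and Baz2b at 0.72 ± 0.16 (adjusted p 0.000175) were positive in the authors' deposited table, opposite in sign to the ISWI ATPase gene Smarca5. Bromodomain readers gave 1 call each way among 15 (6.67% each). These were Trim28 at -0.60 ± 0.16 (adjusted p 0.00194) and Brd2 at 0.34 ± 0.13 (adjusted p 0.0478) in the authors' deposited table.

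The histone chaperones, which carry histones to and from DNA, had the most one-sided counts of the 11 lists. Of 16 genes, 12 were negative (75%, beside 13.5% of all tested genes) and none positive, with a median of -0.85. Npm1 was at -0.89 ± 0.13 (adjusted p 1.55e-10) and Asf1b at -1.42 ± 0.20 (adjusted p 3.05e-10) in the authors' deposited table. Anp32e was at -1.09 ± 0.18 (adjusted p 1.21e-07) in the authors' deposited table. Cell cycle genes moved with them: 29 of 30 were negative (96.7%) and none positive, with a median of -1.28. The mitotic cyclin gene Ccnb2 was at -1.64 ± 0.20 (adjusted p 1.51e-13) in the authors' deposited table. The kinetochore gene Cenpf was at -1.37 ± 0.19 (adjusted p 3.02e-11) and the mitotic gene Birc5 at -1.75 ± 0.24 (adjusted p 4.98e-11) in the authors' deposited table. Setd8, Ezh2, Smarca5 and the other negative members share this sign, and the part of cell cycle state in their values was not tested.

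**Figure D5:**
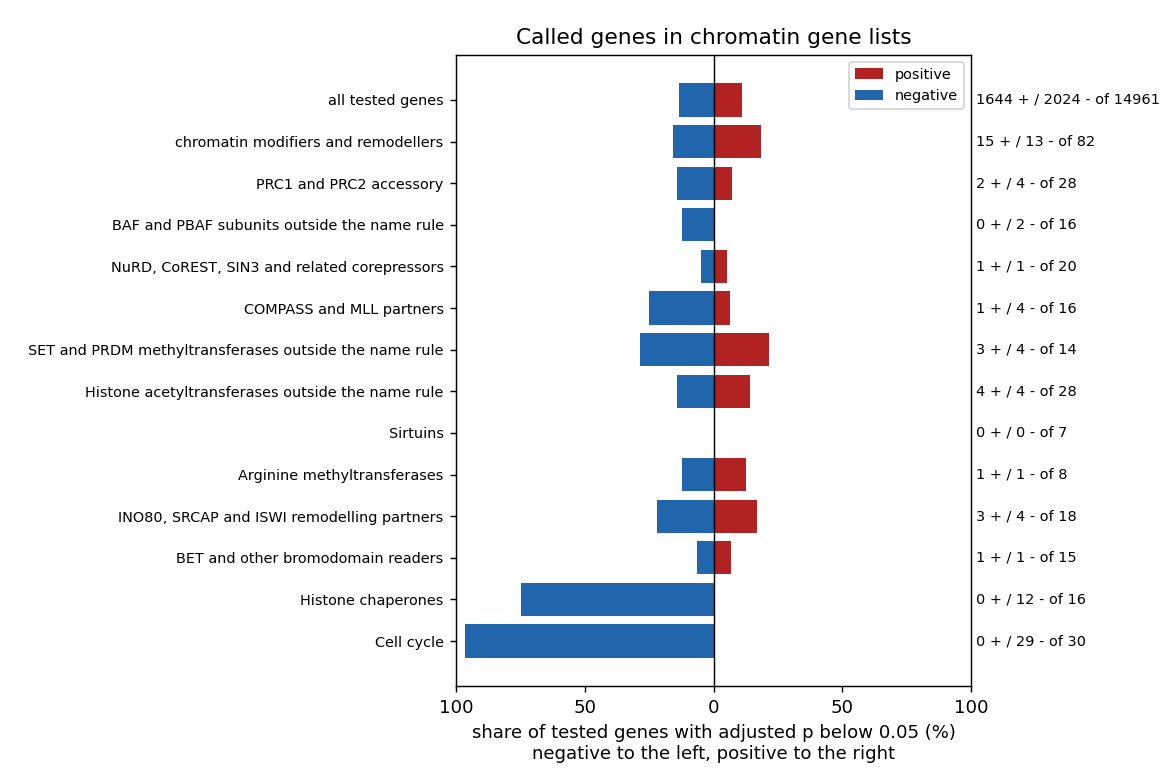
Share of tested genes called (percent, horizontal axis) in each list, negative to the left and positive to the right, with the counts at the right margin. Histone chaperones (12 of 16 negative) and cell cycle genes (29 of 30) differ most from all tested genes (13.5% negative and 11.0% positive).

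Motif letters were counted in promoter windows of the members. RefSeq windows, from 250 bases before to 50 after a start, were found for 66 of the 86 members, including 10 of the negative and 9 of the positive ones. A CCAAT box stood in 4 of the 10 negative and 2 of the 9 positive members, beside 41.1% of all 27025 genes with a window and 42.7% of tested protein-coding genes. An E2F-type octamer (TTTCCCGC; TTTCGCGC; TTTGCCGC; TTTGGCGC; either strand) stood in 1 of the 10 and 0 of the 9, beside 2.61% of all genes and 4.56% of tested protein-coding genes. The 1 was Ezh2, whose octamer begins 4 bases after the start and so lies outside the stretch shown above. Among the 43 members not called that had a window, 4 held the octamer: Arid1a, Kat2a, Smarcd1 and Suz12. The E-box CACGTG stood in 0 of the 10 and in 1 of the 9, Kdm4c, beside 8.09% of all genes and 11.3% of tested protein-coding genes. A match is a run of letters, not a bound site.

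ILC2 genes differed in abundance, and the median over the tested ones was 11642 normalized counts. Means were 44552 for Gata3, 27348 for Rora and 16936 for Il1rl1 in the authors' deposited table. They were 767 for Crlf2, 619 for Il13, 397 for Hes1, 291 for Thy1 and 0.871 for Ptgdr2. Of 17 tested ILC2 genes 6 were positive (35.3%, beside 11.0% of all tested genes). Another 4, Il13, Arg1, Klrg1 and Thy1, were negative (23.5% beside 13.5%). Markers of 9 other cell types were detected too, with summed means per list from 1052 normalized counts for neutrophils to 22993 for dendritic cells, beside 240677 for the ILC2 list. In the dendritic list the largest means were 11427 for Cd74, 4959 for H2-Ab1, 2971 for H2-Aa and 2290 for Ccr7, all called negative. Zbtb46 (770.5, called negative) and Xcr1 (498.9, not called) were lower. Itgax (38.9), Flt3 (23.8), Siglech (8.53) and Clec9a (5.40) were low and not called in the authors' deposited table. Of 68 tested markers of other cell types, 55 were below 0 (80.9%, beside 50.4% of all tested genes). Negative calls numbered 16 (23.5% beside 13.5%), and none was positive. The sign is that of the negative members, and the part of other cells in the results was not tested.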

How the data were processed

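RNA was measured in 6 pooled ILC2 samples. Full-length cDNA (SMART-Seq HT) and transposase-cut libraries (TruePrep V2) were used per the labels' protocols. HISAT2, Cufflinks and mm10 are named, without versions, per the submitters' processing notes. The sources used here do not give the counter, annotation, filters or strand setting. Per the file headers, the authors deposited a signal that is the mean of normalized counts across their libraries, a log2 fold change with SE, a test score, and a p-value with its adjusted p-value, which is present for 14961 genes with means of 10.46 or more.

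A further 12 columns of per-sample values, which stand under 6 names, matched no label and were not used. The planned count fit was therefore replaced by the authors' comparison, per-sample depth was not used, and precision is that of the deposited SE. Intervals of 95% are normal.

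The members and gene lists were chosen with earlier results of these data known. Named genes were the 12 largest positive and 12 largest negative called members, the PRC2 core, the member with the highest mean count in each family, Stk11, up to 3 called genes with the smallest p per partner list, and 3 cell cycle genes. A gene that the rule selects in a partner list is not reported here. Other members were named to account for the whole set. Gene models were GENCODE M21 on mm10, which held all 86 members. Exonic length is the union of a gene's exons. Length and GC trends were lowess fits (span 0.3) over 13036 protein-coding genes, with Benjamini-Hochberg adjustment over them. The Benjamini-Hochberg and trend steps used here were tried on fold changes simulated with the deposited SE, which cannot test the authors' own calls. Tools were statsmodels 0.14.6, matplotlib 3.10.9, scipy 1.17.1, numpy 2.4.6 and pandas 2.3.3 in Python 3.11.15. Alternatives covered the threshold, size of change, filter on low means, centring, trends, gene naming and exon overlap.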

Additional observations from a re-analysis of the deposited data

How the results depend on the processing

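Of the 28 called members (15 positive, 13 negative), 18 stayed called at an adjusted p below 0.01 (9 positive). They were 22.0% of members, beside 15.8% of all tested genes. At 1.5-fold or more 16 stayed called (8 positive, 8 negative), or 19.5% beside 16.3%. With the length trend alone removed, an alternative added after seeing the data, 9 positive members stayed called. They were 11.0% of members, beside 11.6% of all genes in this fit, and Chd9 was among those lost. The members' median of 0.127 turned to -0.0594 with the length and GC trends removed and to -0.0479 with the length trend alone. With no filter on low means, 22 of 86 members were called (25.6%, beside 7.23% of 39444 genes). These shares do not compare genes of like abundance. Only 14961 genes, but 82 of the 86 members, had an adjusted p in the deposited comparison. Without the filter Arid4a, Chd2, Hdac2, Kdm5a, Kdm8 and Smarcb1 lost their call. A mean of at least 100 normalized counts added Ezh1, and the share of negative members (16.9%) fell below that of all genes kept (19.97%). Centring on the most abundant 25% of genes gave 17 positive (20.7%) and 11 negative members (13.4%), beside 12.4% and 12.02% of all genes. The shares of all genes moved the same way, from 11.0% positive and 13.5% negative. Hdac2 and Kdm8 lost their call with this centring, and Ezh1 and Kdm5c gained one. Centring on all tested genes or testing protein-coding genes alone gave 15 positive (18.3%) and 13 negative (15.9%). All genes gave 11.2% and 13.2% with this centring, and protein-coding genes alone 11.6% and 14.9%. Leaving out members that overlap another gene by 5% or more of their exons, also added later, gave 12 positive and 12 negative. Each was 17.4% of the 69 members left, beside 11.0% positive and 13.5% negative of all tested genes. The called members left out were Chd2, Chd8, Kdm1b and Kdm2b. None of the 28 called members, nor Ezh1, Suz12 or Eed, changed sign under these settings. No paired analysis was possible because the per-sample columns match no label and carry no replicate number. For the same reason edgeR, DESeq2, a count filter and leaving out each replicate were not run. Low means limit precision, as for Hdac9, Hdac11 and Smarcd3.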

Other observations

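Some genes now named into these families stood outside the name rule, because the table uses their older symbols. Suv420h1 (current symbol Kmt5b), which adds further methyl groups to H4K20 after Setd8 has placed the first, was positive at 0.66 ± 0.19 (adjusted p 0.0044, mean 1516.9) in the authors' deposited table, opposite in sign to Setd8. Its paralogue Suv420h2 (Kmt5c) stood at 0.06 ± 0.14 (adjusted p 0.822) in the authors' deposited table. The acetyltransferase gene Csrp2bp (Kat14) stood at 0.01 ± 0.20 (adjusted p 0.986) in the authors' deposited table. With these genes counted as members, 16 were positive (18.8%, beside 11.0% of all tested genes) and 13 negative (15.3% beside 13.5%).

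Of the H3K9 methyltransferase genes, Suv39h1 was negative at -1.18 ± 0.30 (adjusted p 0.000759) and Suv39h2 at -1.31 ± 0.33 (adjusted p 0.000951) in the authors' deposited table. Setdb1 at 0.13 ± 0.14 (adjusted p 0.58) and Setdb2 at -0.23 ± 0.16 (adjusted p 0.297) were not called in the authors' deposited table. Ehmt1, described above, was positive, and Ehmt2 stood at -0.25 ± 0.13 (adjusted p 0.166) in the authors' deposited table. These genes were chosen after their values were seen. A further 7 entries with member-like symbols were pseudogenes or an antisense gene, and their means were at most 16.5 normalized counts in the authors' deposited table.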
